A study of Mus musculus with 5 samples.

Results

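The surface markers by which mouse long-term hematopoietic stem cells (HSCs) are sorted were read in Atxn1L null and WT HSCs. The set holds 10 genes: Kit, Ly6a and Slamf1, whose proteins c-Kit, Sca-1 and CD150 were stained to purify these cells, Procr, Tek, Esam and Thy1, which also mark HSCs, and Cd34, Cd48 and Flt3, whose proteins are used to exclude multipotent progenitors. The members were chosen by name, as every probe set that the array annotation gives to exactly 1 of these genes. This gave 12 of the 45037 probe sets tested, and 9 of the 18193 genes that have at least 1 such probe set. Ly6a had no such probe set in the annotation used here and was not analysed.

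Pools of sorted HSCs were profiled on Affymetrix mouse arrays, 2 with RNA of Atxn1L null mice and 3 with RNA of WT mice. All mice had the C57Bl/6 background and were 6 to 8 weeks old by the sample labels, and the null mice lacked Atxn1L, a paralog of the gene of spinocerebellar ataxia type 1, with no restriction to a tissue stated. Both genotypes passed the same gate: no lineage markers, c-Kit and Sca-1 on the surface, CD150 on the surface, and exclusion of the Hoechst dye, which defines the side population. The number of mice behind a pool and the day of its sort are not given in the sources used here. The p-values therefore measure the spread between these pools, which may be partly technical.

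In adult mouse marrow no single surface protein defines an HSC, and combinations are used. Long-term HSCs carry c-Kit, the receptor of stem cell factor, Sca-1, a small GPI-anchored protein of the Ly6 family, the SLAM family receptor CD150 and the protein C receptor encoded by Procr. As they turn into multipotent progenitors they lose CD150 and gain CD34, then the cytokine receptor Flt3, and CD48, another SLAM family protein. Tek encodes Tie2, the angiopoietin receptor known for its part in the quiescence of HSCs in the niche. Esam, an adhesion molecule of endothelial cells and platelets, and Thy1, a GPI-anchored protein of T cells and neurons, are further markers of the HSC fraction.

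The values are log2 GCRMA values, the authors' background-corrected and quantile-normalized signal of a probe set, so that a difference of 1 is a doubling. Differences are given as null minus WT. A difference was called by the study's criterion, p of at most 0.05 in limma and a fold of at least 1.5. A probe set with a mean under 5 in both genotypes is called dim here, and near that floor GCRMA compresses real differences. Levels of different probe sets are not compared, since probes differ in how well they bind. With 2 null and 3 WT arrays, no exact permutation test can give a p below 0.1, and 5 arrays allow only a coarse estimate of each difference.

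None of the markers was called in either direction. The criterion was passed by 0 of the 12 probe sets, against 2.38% of all probe sets tested (1.13% called higher and 1.25% called lower in null HSCs). Of probe sets that were not dim, 7.44% were called. For 12 probe sets, 0 calls lie near these shares, so the count alone does not set the markers apart from other genes. Both genotypes had been sorted by the same gate, so the markers were compared only within cells that passed it. A limma p of at most 0.05 with no minimum fold was reached by 0 of 12, against 5.59%. Benjamini-Hochberg adjusted p-values, from limma over all probe sets, were 1 for all 12, and 0.00222% of all probe sets, which is 1 probe set, had one under 0.05. Differences ran from -0.27 for Kit to 0.23 for Tek, at most 1.20-fold in size, and 5 were above 0 and 7 below. Their median was -0.0052, against -0.0025 over all probe sets. The median size of the difference was 0.20 for the 5 member probe sets that were not dim, Kit, Procr, Tek, Cd34 and Flt3, and 0.25 for all probe sets that were not dim. In RNA of sorted bulk cells, fewer cells that carry a transcript and less of it per cell cannot be told apart.

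**Figure D1:**
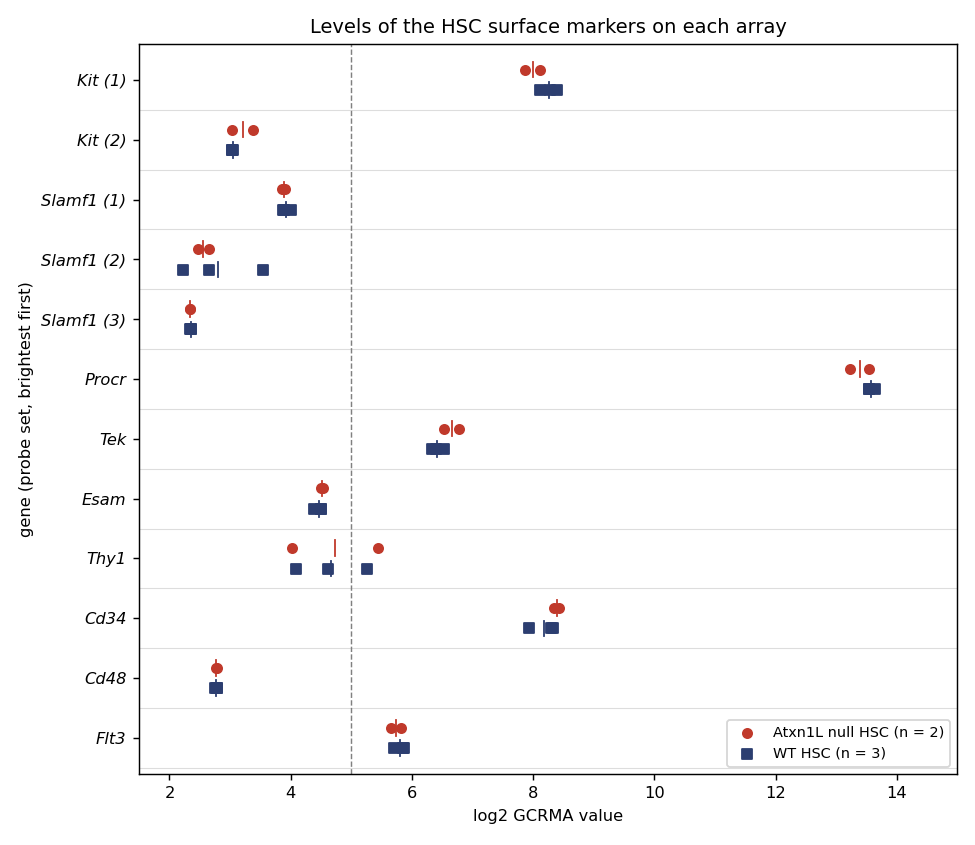
Log2 GCRMA value (horizontal axis) of each probe set of the markers (vertical axis; numbers in brackets count the probe sets of a gene, brightest first), with a red circle per Atxn1L null array above, a blue square per WT array below, and a short line at each genotype's mean. The dashed line stands at 5, the level under which a probe set was called dim. Kit, Procr, Tek, Cd34 and Flt3 have a probe set above it in both genotypes, and the 3 probe sets of Slamf1 and the 1 of Cd48 lie below it on every array.

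Of the proteins stained for the sort, Kit, the receptor tyrosine kinase that HSCs need to survive and renew, gave a clear signal. Its brighter probe set read 7.87 and 8.12 in the null pools and 8.39, 8.28 and 8.12 in the WT pools. The second null pool and the third WT pool had exactly the same value, so the genotypes touched without crossing. The mean was 8.00 ± 0.18 (SD, n = 2) in null and 8.26 ± 0.13 (SD, n = 3) in WT HSCs, a log2 difference of -0.27 with a standard error of 0.12 (unadjusted limma p of 0.0982, exact permutation p = 0.3). Its 95% interval, from -0.61 to 0.08, reaches just past a 1.5-fold fall and covers no fall beyond 1.53-fold. Without the first null pool the difference was -0.14, and without the second it was -0.39. The other probe set of Kit was dim and leaned the other way. It read 3.04 and 3.38 in the null pools and 3.04, 3.05 and 3.04 in the WT pools, a difference of 0.17 that came from the second null pool alone. With the values of both probe sets averaged, the difference of Kit was -0.049. Both carry the _a_at suffix, which the array design gives to probe sets shared by alternative transcripts of 1 gene.

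Slamf1, the gene of CD150, was dim on all arrays. Every pool had been sorted for CD150 protein. Its brightest probe set read 3.86 and 3.91 in the null pools and 3.87, 3.90 and 3.999 in the WT pools. All 5 values lay within 0.13 of each other, the genotypes overlapped, and the difference was -0.034. The second probe set read 2.65 and 2.47 in the null pools and 2.23, 3.55 and 2.65 in the WT pools. There the second WT pool alone stood apart, and the difference of -0.25 had an interval from -1.53 to 1.04. The third read 2.34 and 2.35 in the null pools and 2.34, 2.36 and 2.36 in the WT pools, a spread of 0.021 over all arrays. With all 3 probe sets near the floor of the scale, these arrays give the Slamf1 transcript only as low or poorly detected in both genotypes, and no difference in it could be detected.

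Among the HSC markers outside the gate, Procr was high in every pool. Its only probe set read 13.23 and 13.54 in the null pools and 13.55, 13.64 and 13.54 in the WT pools. The first null pool was the lowest, while the second had exactly the value of the third WT pool. The means were 13.39 ± 0.22 (SD, n = 2) in null and 13.57 ± 0.05 (SD, n = 3) in WT HSCs, a difference of -0.19 with an interval from -0.50 to 0.12 (unadjusted limma p of 0.166, exact permutation p = 0.2), which covers no fall beyond 1.41-fold. Without the first null pool the difference was -0.032, and without the second it was -0.34 at an unadjusted limma p of 0.00958, still short of the fold of the criterion. Its name ends in _s_at, which marks a probe set that may share probes with transcripts of another gene.

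Tek leaned upward in null HSCs, again through the first null pool. Its probe set read 6.78 and 6.53 in the null pools and 6.40, 6.53 and 6.34 in the WT pools. The second null pool and the second WT pool had the same value. The means were 6.65 ± 0.18 (SD, n = 2) in null and 6.42 ± 0.10 (SD, n = 3) in WT HSCs, a difference of 0.23 with an interval from -0.07 to 0.54 (unadjusted limma p of 0.0985, exact permutation p = 0.3), which covers no rise beyond 1.45-fold. Without the second null pool it was 0.36 at an unadjusted limma p of 0.0375, under 1.5-fold, and without the first it was 0.11.

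Esam and Thy1 were dim in both genotypes. The probe set of Esam read 4.50 and 4.54 in the null pools and 4.39, 4.50 and 4.50 in the WT pools, and 1 null and 2 WT pools shared a value. Its difference was 0.055 (unadjusted limma p of 0.299, exact permutation p = 0.6). The probe set of Thy1 read 4.02 and 5.44 in the null pools and 4.62, 4.10 and 5.27 in the WT pools. Thy1 had the widest spread of all the markers, 1.42 over the 5 arrays, and the lowest and the highest value were both from null pools. Its difference of 0.070 had an interval from -1.67 to 1.81, that is from a 3.18-fold fall to a 3.50-fold rise, so the arrays say little about it. Without the second null pool it was -0.64 and without the first 0.78.

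Of the markers of multipotent progenitors, Cd34, a sialomucin that adult long-term HSCs of the mouse largely lack, was the only marker for which the genotypes did not overlap. Its probe set read 8.43 and 8.34 in the null pools and 7.92, 8.29 and 8.33 in the WT pools. Both null pools were above all WT pools, but the gap between the nearest 2 values was 0.0055, far less than the spread within the WT pools. The means were 8.39 ± 0.07 (SD, n = 2) in null and 8.18 ± 0.22 (SD, n = 3) in WT HSCs, a difference of 0.20 with an interval from -0.23 to 0.64 (unadjusted limma p of 0.257, exact permutation p = 0.4). Without the first WT pool, the lowest, it was 0.075. Such a separation was seen for 1 of the 12 member probe sets, which is 8.33%, against 14.2% of all probe sets tested (6.75% with the null pools above and 7.5% with them below). CD34 protein was not part of the gate, and its transcript was plainly read in both genotypes.

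Flt3, the receptor tyrosine kinase that marks the step to lymphoid-primed progenitors, was read at a low level. Its probe set read 5.66 and 5.82 in the null pools and 5.85, 5.71 and 5.86 in the WT pools. The genotypes overlapped, and the difference was -0.066 with an interval from -0.29 to 0.16 (unadjusted limma p of 0.453, exact permutation p = 0.5), which covers neither a fall of 1.5-fold nor a rise of that size. Without the first null pool it was 0.014.

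Cd48, whose protein is absent from long-term HSCs and present on most progenitors, was at the floor of the scale. Its probe set read 2.76 and 2.78 in the null pools and 2.76, 2.78 and 2.78 in the WT pools, a spread of 0.024. The difference was -0.0014 (unadjusted limma p of 0.925, exact permutation p = 1). In RefSeq's annotation of the mouse genome (GRCm38.p6), Slamf1 and Cd48 lie on the same chromosome with 1 protein-coding gene between them, and Slamf7, another gene of the SLAM family, lies next to Cd48. Kit lies between Pdgfra and Kdr, which encode related receptor tyrosine kinases.

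**Figure D2:**
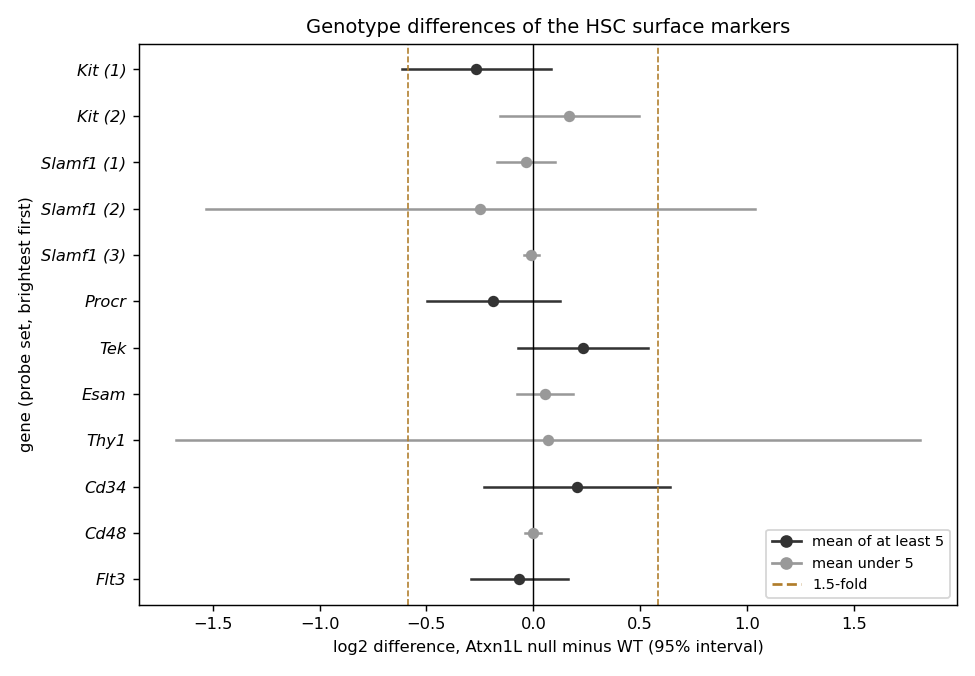
Log2 difference, Atxn1L null minus WT (horizontal axis), with its 95% interval from limma, for each probe set of the markers (vertical axis), dark for probe sets that were not dim and grey for dim ones. Dashed lines mark a 1.5-fold change in each direction. All 12 intervals include 0, and those of the brighter Kit, the second Slamf1, Thy1 and Cd34 probe sets reach past a dashed line.

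The intervals of 8 of the 12 probe sets lay within a 1.5-fold change in either direction. Those of Procr, Tek and Flt3 are the ones among them from probe sets that were not dim, and Flt3 was read at a low level. The other 5 belong to dim probe sets, and their width says little of the transcript itself. The intervals of the brighter Kit probe set, of the second Slamf1 probe set, of Thy1 and of Cd34 reached further. By an exact permutation test over arrays, two-sided, the p-values of the 9 genes, each read by its brightest probe set, ran from 0.2 for Procr to 1 for Cd48.

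The first null pool gave the lowest or the highest value for each of the 5 probe sets that were not dim. It was lowest for Kit, Procr and Flt3 and highest for Tek and Cd34. Over all probe sets that were not dim, the first null pool was the lowest or the highest, without a tie, in 51.9%, against 38.4% for the second null pool, 43.4% for the first WT pool, 25% for the second and 40.2% for the third. Values shared exactly between a null and a WT array were seen for 6 of the 12 member probe sets and for 26% of all probe sets, and were not counted as separate.

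**Figure D3:**
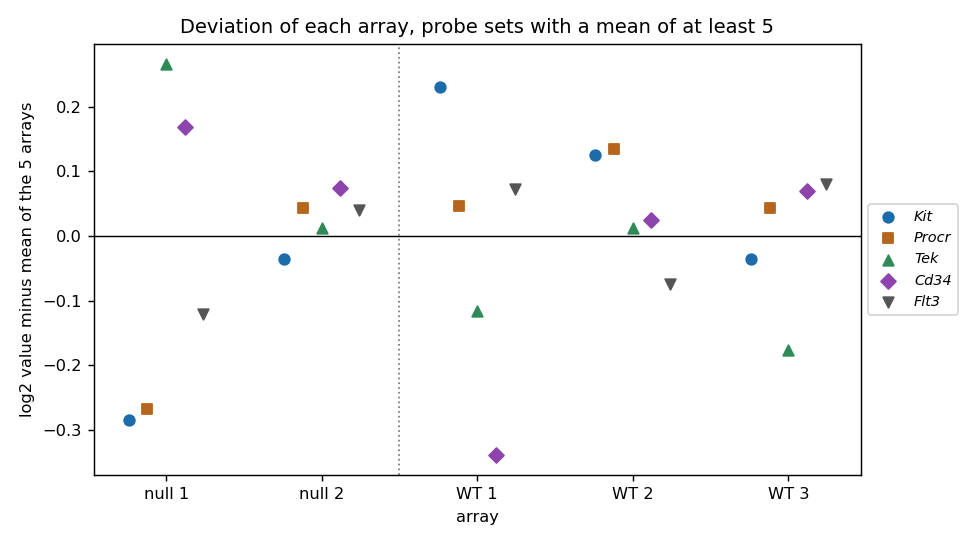
Deviation of each array from the mean of the 5 arrays, on the log2 scale (vertical axis), for the 5 probe sets with a mean of at least 5, a symbol per gene, by array (horizontal axis; null arrays left of the dotted line). The first null array holds the lowest Kit, Procr and Flt3 and the highest Tek and Cd34, and the first WT array the lowest Cd34, 0.34 below the mean.

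The null pools also differed from the WT pools in the 3' against 5' signal of control probe sets, a sign of how complete the RNA or its amplification was. The excess of the 3' over the 5' value of Gapdh was 7.33 and 7.21 in the null pools and 5.89, 6.02 and 5.92 in the WT pools. For beta-actin the excess was 7.43 and 7.28 in the null and 6.71, 6.60 and 6.40 in the WT pools. The annotation does not place the probe sets of the markers along their transcripts, and the part of this difference in the values above was not tested. Atxn1l itself was low in the null pools. A probe set of it read 3.23 and 3.65 in the null pools and 6.31, 6.52 and 5.74 in the WT pools, a fall of 2.75 on the log2 scale that was called with any 1 array left out (limma adjusted p = 0.344). Another read 3.08 and 3.99 in the null pools and 6.80, 6.69 and 4.98 in the WT pools, and its call was lost on leaving out any array except the third WT array. The last was at the floor in both genotypes.

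Genes related to the markers gave few calls. For each gene the probe set with the highest mean was taken, and in that way 3% of all genes were called, 1.57% higher and 1.43% lower in null HSCs. Of 17 other surface proteins of HSCs that were measured, 0 were called. A positive difference was seen for 11 (64.7%), against 45.4% of all genes, and the median difference was 0.046, against -0.0019 over all genes. Of the 17, 14 were not dim, against 7236 of all 18193 genes, so these backgrounds hold mostly dim genes. No limma p fell under 0.05 among them other than that of Ptprc. Ptprc, the pan-leukocyte phosphatase CD45, read 11.69 and 11.58 in the null pools and 11.40, 11.48 and 11.33 in the WT pools, a separation of the genotypes at a difference of 0.23 (limma adjusted p = 0.703), below the required fold. Another probe set of Ptprc, named after its values were seen, was called in the other direction, at 5.66 and 5.53 in the null pools and 7.26, 6.76 and 6.23 in the WT pools, so the probe sets of this gene disagree. Cd81, a tetraspanin, read 11.36 in null and 11.29 in WT HSCs.

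Among 20 measured ligands and signaling partners of the markers, 1 was higher and 1 lower. Kitl encodes stem cell factor, the ligand of c-Kit, which in marrow is made mainly by niche cells. It read 3.47 and 3.35 in the null pools and 4.02, 4.71 and 4.05 in the WT pools, a called fall of 0.85 on the log2 scale between dim signals (limma adjusted p = 0.810). Its 3 other probe sets differed by -0.0069 to 0.0030, and the call was lost on leaving out any array except the second WT array. Grb10, an adaptor that binds receptor tyrosine kinases, c-Kit among them, read 7.38 and 6.94 in the null pools and 6.08, 6.61 and 6.60 in the WT pools, a called rise of 0.73 that ended when any 1 array was left out (limma adjusted p = 0.866). The other probe sets of Grb10 were dim and differed by 0.0090 and -0.011. Angpt1, the ligand of Tie2, read 9.18 and 8.84 in the null pools and 8.75, 8.84 and 8.57 in the WT pools and was not called, and F2r, the thrombin receptor through which the protein C receptor can signal, read 13.51 in null and 13.45 in WT HSCs (both chosen after their values were seen). Thbd, thrombomodulin, the cofactor with which protein C is activated, was dim at 3.15 and 3.10 in the null pools and 2.88, 2.92 and 2.92 in the WT pools. This separation was below the required fold (unadjusted limma p of 0.00119, adjusted p = 0.344). Grb2, of the same list, read 8.22 and 8.39 in the null pools and 9.36, 8.73 and 8.73 in the WT pools. Its difference of -0.64 passed the fold but not the p (unadjusted limma p of 0.0665), and its other probe set was at -0.076. Thbd and Grb2 were also chosen after their values were seen.

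No member of the families of the markers was called. Of 9 measured SLAM family genes, Slamf1 and Cd48 included, 1 was not dim, Cd84, at 6.09 in null and 5.65 in WT HSCs. It read 6.43 and 5.75 in the null pools and 5.50, 5.70 and 5.75 in the WT pools. The second null pool and the third WT pool had the same value, so only the first null pool stood apart. The median difference of that family was -0.0024. Of 10 measured genes of the Ly6 family, the relatives of Ly6a, 2 were not dim: Ly6e read 9.31 in null and 9.39 in WT HSCs, and Cd59a 5.70 in null and 5.60 in WT HSCs. Of the 7 receptor tyrosine kinases of the class III and Tie families, Kit, Flt3 and Tek included, 5 were not dim, and the 2 besides these members were Pdgfrb and Csf1r. Pdgfrb, a receptor of platelet-derived growth factor, read 7.71 and 8.94 in the null pools and 8.00, 6.90 and 7.62 in the WT pools. Its genotypes overlapped, and the difference of 0.81 was within the spread of the null pools.

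Of 12 measured markers of multipotent and lymphoid-primed progenitors, 1 was called: Cd27, a costimulatory receptor of lymphocytes, was dim and read 4.06 and 3.97 in the null pools and 3.47, 3.22 and 3.55 in the WT pools, a rise of 0.60 (limma adjusted p = 0.536) whose call ended without the first null or the second WT array. The list's median difference was -0.0091, and 5 of the 12 differences were above 0 (45.4% over all genes), but 8 of the 12 genes were dim. The 4 that were not dim were Cd52, Satb1, Csf1r and Fcgr3, none of them called. Csf1r, the receptor of macrophage colony-stimulating factor, read 7.46 and 6.87 in the null pools and 6.72, 6.72 and 6.80 in the WT pools, a difference of 0.42 with both null pools above all WT pools. The second null pool stood only just above the third WT pool, so the size of this difference rested mostly on the first null pool. Separations in either direction were seen for 14.2% of all probe sets. Satb1, a chromatin organizer of lymphoid cells, read 8.09 and 8.97 in the null pools and 9.16, 8.90 and 9.04 in the WT pools, a difference of -0.50 that rested on the first null pool. The genotypes overlapped for Satb1, and also for Cd52, at 9.36 in null and 8.94 in WT HSCs, and for Fcgr3, at 6.91 in null and 6.93 in WT HSCs (these 4 were chosen after their values were seen). Markers of mature cells were mostly at the floor. Of 13 mature lineage markers, 0 were called and 1 was not dim, Cd79b, at 6.44 in null and 6.24 in WT HSCs. Cd3e, Cd4, Cd8a and Itgam, which define T and myeloid cells, averaged 1.87 to 3.06 in both genotypes. The summed log2 level of the 13 genes ran from 39.2 to 39.4 in the null pools and from 39.1 to 39.3 in the WT pools. With most of the 13 at the floor, this sum had little room to differ and says little of mature cells.

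Endothelial cells carry Tek, Esam, Procr and Cd34 as well. Of 14 endothelial markers, 0 were called and 2 were not dim, Vwf and Egfl7, both also expressed by HSCs. The defining ones were near the floor: Cdh5 read 2.34 in null and 2.35 in WT HSCs, Kdr 3.52 in null and 3.69 in WT, Cldn5 3.38 in null and 3.48 in WT, Plvap 3.22 in null and 3.07 in WT, and Nos3 2.26 in null and 2.30 in WT HSCs. The summed log2 level of the 14 genes ran from 49.1 to 50.2 in the null pools and from 48.8 to 50.6 in the WT pools. Most of the 14 were dim, so this sum says little of endothelial cells. Of 9 stromal markers, which share Thy1 and Ly6a with HSCs, 0 were called and 2 were not dim, Pdgfrb and Col1a2. The sum over all 9, most of them dim too, ran from 33.3 to 35.4 in the null pools and from 33.2 to 34.5 in the WT pools. Of 8 mast cell markers, which share Kit, 0 were called, and Srgn, Hdc and Ms4a2 were not dim. Srgn read 13.09 in null and 13.12 in WT HSCs, Hdc 8.25 in null and 8.34 in WT. Ms4a2 read 5.11 in null and 5.17 in WT HSCs, with WT pools from 4.19 to 6.32. Cpa3 was dim at 3.75 in null and 3.60 in WT HSCs, and Fcer1a at 2.40 in null and 2.39 in WT. Cma1, Mcpt4 and Tpsb2 averaged 2.12 to 2.66 in both genotypes. The sum over all 8 ran from 39.7 to 39.8 in the null pools and from 38.5 to 41.5 in the WT pools.

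**Figure D4:**
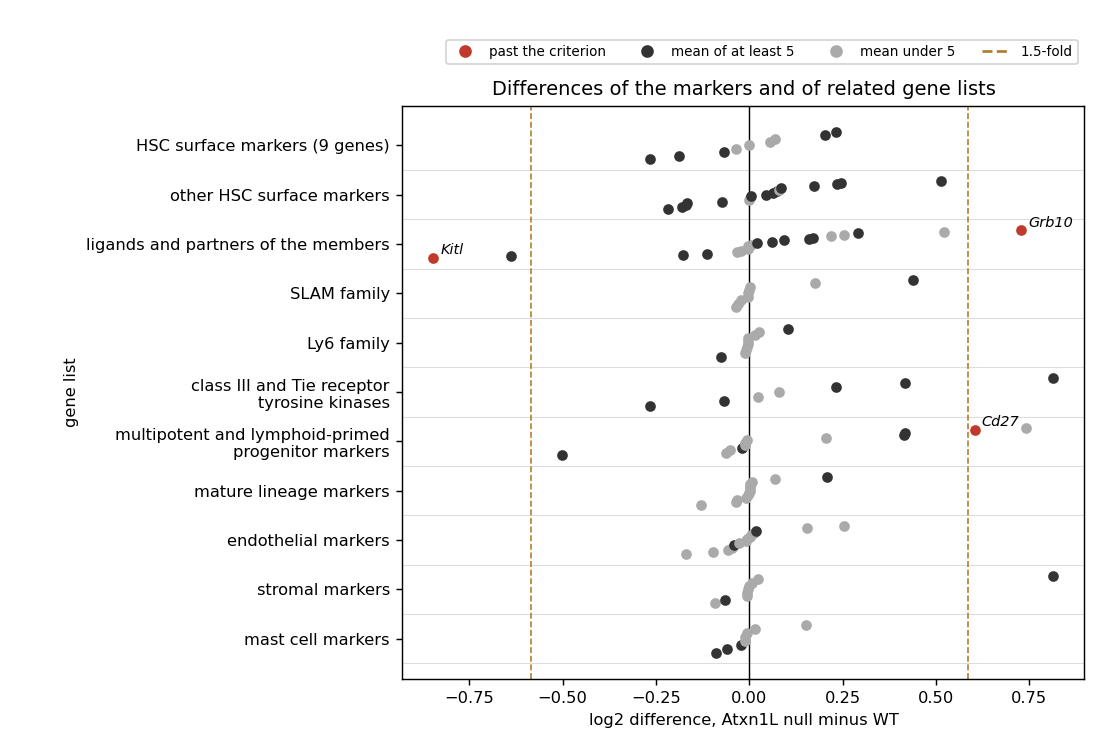
Log2 difference, Atxn1L null minus WT (horizontal axis), of each gene in the lists named on the vertical axis, taken from the probe set with its highest mean, black for genes that were not dim, grey for dim genes and red for genes past the criterion. The 9 surface markers lie between -0.27 and 0.23, and only Kitl, Grb10 and Cd27 among the listed genes are red.

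Over all 5 arrays the brighter Kit probe set had the largest difference of the markers in size. This order was lost when any 1 array was left out. Without the first null pool Kit was at -0.14 and the dim Thy1 at 0.78. Without the second null pool Kit was at -0.39 and Thy1 at -0.64. Without the first WT pool Kit was at -0.20 and the second Slamf1 probe set, also dim, at -0.54. Without the second WT pool Kit was at -0.26 and Tek at 0.29, and without the third Kit was at -0.34 and Thy1 at 0.37. The genes with the pattern most like that of Kit over the 5 arrays, out of 7235 genes that were not dim, were Tex9, Ap1s1 and Ap5m1. Their root mean square distances from Kit, after each probe set was centred on its own mean, were 0.035, 0.039 and 0.039, where the median distance was 0.29.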

How the data were processed

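RNA of sorted HSCs was hybridised to Affymetrix MOE430.2 arrays after T7-based amplification. The authors processed the intensities with GCRMA and deposited log2 values after background correction, quantile normalization and summarization. No source used here gives the version of GCRMA. The values span the range of log2 signals, from which the base was taken. Array medians ran from 3.03 to 3.07.

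After 64 Affymetrix control probe sets were left out, the other 45037 were fitted with limma 3.58.1 under R 4.3.3 (lmFit and eBayes, a mean per genotype, 3 residual degrees of freedom), with Benjamini-Hochberg adjustment over all of them. The platform's annotation names 1 gene for 34945 of them, several for 932 and none for 9160. Members, lists and tests were chosen with earlier results of these data known. The genes named are all members, Atxn1l, up to 4 called genes a list in each direction or otherwise the 2 brightest, and the 3 nearest in pattern. Others are said to have been chosen after their values were seen or are given as defining markers. The fit was also run on simulated data with known differences, which checked its estimates and intervals but set no condition on the calls. Alternatives were the variance model, array weights, normalization, filters, ways to combine probe sets, the replicate number as a block, and each array left out in turn.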

Additional observations from a re-analysis of the deposited data

How the results depend on the processing

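Under 14 other ways of processing and 1 more (array weights gene by gene), added after seeing the data, the 12 probe sets of the markers gave 166 differences, of which 1 was called and 12 changed sign. The called one was the second Slamf1 probe set with array weights, -0.99, so that the count of called member probe sets was 1. Those weights did not converge, with 1813 for the second WT array against 0.05 to 0.30 for the others. With weights estimated gene by gene the count was 0. It was 0 under all other alternatives too, as was the count at an adjusted p under 0.05 under every one. Flt3 was at 0.034 with the first weights.

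The labels number the pools of both genotypes, but the numbers do not document a pairing. Deviations from the genotype means correlated at -0.03 for the pools numbered 1 and -0.26 for those numbered 2. The first null pool correlated at 0.26 with the second WT pool and at -0.19 with the third. With only 2 null pools, their deviations mirror each other, so the second gave the same values with reversed signs. Such correlations cannot show whether the pools were paired. With the replicate block, Slamf1 (brightest probe set) was at 0.0039 and Cd48 at 0.0031, and 762 probe sets were called in all.

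With 1 array left out in turn, 0 member probe sets were called, and the sign changed for the dim Kit probe set (-0.0022 to 0.34), the brightest Slamf1 (-0.060 to 0.0039) and the second Slamf1 probe set (-0.54 to 0.12), Thy1 (-0.64 to 0.78), Cd48 (-0.0087 to 0.0056) and Flt3 (-0.15 to 0.014). Over all probe sets the count of calls, 1074, ran from 709 (without the first WT array) to 1948 (without the second null array) with 1 array left out. It was 546 with 1 probe set per gene and 257 with the mean over the probe sets of a gene, both tests of fewer features, and 2517 with no minimum fold. Signal near background limits Slamf1, Cd48, Esam, Thy1 and the dim Kit probe set.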
